A study of Mus musculus with 6 samples.

Results

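The fibroblasts (FBs) described here are those that had spent 2 weeks in organoid culture, set against FBs taken straight from the lung, both on the normal side of a study of lung injury. Of 33286 cell barcodes in the 6 libraries of the series, 6857 were FBs of these 2 groups. The organoid group held 1761 of the 5441 barcodes of the normal organoid library, and the fresh group held 5096 of the 6139 barcodes of a PBS lung library. Members were chosen by measured values. An organoid FB had at least 10000 unique molecular identifiers (UMIs, the count of captured RNA molecules), no UMI of Epcam, Col1a1 and Col1a2 together at 500 CPM (counts per 1000000 UMIs) or more, and Sftpc under 5000 CPM. A fresh FB had at least 2000 UMIs, none of Ptprc, Pecam1 or Epcam, and at least 3 UMIs of Col1a1, Col1a2 and Pdgfra together. The levels of these 7 genes are therefore given as a description of the choice.

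Single-cell RNA sequencing in droplets was done with 1 library per condition, so no error between mice or cultures could be had and no test was made. The fresh FBs were GFP+ cells sorted from lungs of PDGFRa-EGFP mice, which carry green fluorescent protein under the control of Pdgfra, after PBS was given by oropharyngeal aspiration once a week for 3 weeks in 50 µl. The organoid FBs were GFP+ cells from mice of the same reporter line given 1 dose of PBS, in place of the 3 of the fresh group, and harvested at day 14. They were mixed in Matrigel with Tomato+ alveolar type 2 epithelial cells (AEC2s) from tamoxifen-treated SpcCreER donors that also carried a Tomato reporter allele at Rosa, where SpcCreER confines Cre activity to cells with an active surfactant protein C promoter, at 10 AEC2s per FB by the sample labels, where the study's methods give cell numbers with an excess of FBs instead, and grown on transwells in MTEC+ medium over a period of 2 weeks. Lungs and organoids were digested with different enzymes, so effects of culture, dosing, digestion and library cannot be told apart. A second fresh library, from a lung given 1 dose of PBS, held 841 FBs of 1060 barcodes by the same limits and is set beside the first. It shares the organoid library with the main comparison and is not an independent repeat of it. On the injured side, FBs of mice given bleomycin, an agent that causes lung fibrosis, were grown in the same way (1816 FBs) or taken fresh after 3 weekly doses (5280 FBs) or 1 dose (797 FBs). Each lung library pooled cells of 3 mice.

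Lung FBs that carry Pdgfra include lipofibroblasts (LipoFBs), which lie next to AEC2s, store lipid and form part of the niche that supports these stem cells, and matrix FBs of the adventitia and interstitium (MatrixFBs). After injury, FBs can take on the features of myofibroblasts (MyoFBs), which contract and secrete collagen. Fibroblasts put into culture have long been known to gain contractile fibres. Organoid co-culture is used to measure how FBs support the growth and differentiation of AEC2s.

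The limits left few barcodes near the edge. Of 3795 organoid barcodes with at least 10000 UMIs, 1820 had no Epcam UMI, and 1802 of these also met the Sftpc limit. The lowest organoid FB had Col1a1 and Col1a2 together at 504 CPM, the highest barcode outside was at 476 CPM, and the median FB at 5379 CPM. Between 500 and 1000 CPM lay 29 FBs, and 41 barcodes lay under 500. The depth limit left out 385 organoid barcodes that met the other limits, of which the deepest had 9989 UMIs, while the shallowest FB inside had 10155. In the fresh library 27 barcodes had exactly 3 marker UMIs and 27 more had 2, where the median fresh FB had 21. The 12 FB markers, which include Col1a1, Col1a2 and Pdgfra of the membership rule, were each at 10 CPM or more in both groups, and summed to 19987 CPM in organoid FBs, 23943 CPM in the fresh FBs and 26594 CPM in the single-dose PBS FBs, against 4742 CPM in the 1975 Epcam-positive barcodes of the organoid library.

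Depth differed between the groups. The organoid FBs had a median of 51504 UMIs and 6619 genes per cell, the fresh FBs 10517 UMIs and the single-dose PBS FBs 7039 UMIs, and summed UMIs were 101287047, 55984047 and 5905167. Median mitochondrial shares were 3.51%, 2.98% and 2.53%, and median ribosomal protein shares 18.5%, 11.1% and 18.6%. Of the 12 AEC2 markers, 6 reached 10 CPM in organoid FBs and 3 in fresh FBs, with sums of 513 and 125 CPM, against 85571 CPM in the Epcam-positive barcodes of the same culture. The 10 general epithelial markers summed to 19.6 CPM in organoid FBs and 59.6 CPM in fresh FBs. Spint2 alone gave 4.08 and 58.3 CPM of these sums. Every other marker except Epcam, which the rule excluded, had more CPM in organoid FBs, such as Krt18 at 5.7 and 0.214 CPM. Myeloid markers summed to 64.3 and 28.8 CPM, endothelial markers to 57.4 and 40.6 CPM, and B and plasma cell markers to 0.63 and 517 CPM, the last led by Igkc at 397 CPM in the fresh FBs. Lyz2, also an AEC2 marker, gave 43 and 11 CPM of the myeloid sums. Tyrobp, Fcer1g and S100a9 had fewer CPM in organoid FBs. Calcrl (39.4 and 11.4 CPM) and Egfl7 (11.8 and 1.2 CPM) carried the endothelial difference, while Cdh5, Cldn5, Kdr, Tie1 and Ramp2 had fewer CPM in organoid FBs. The part of the RNA of myeloid, endothelial and B cells in the results was not tested. Only 3 FB barcodes were shared by the organoid and the fresh library. Xist, transcribed in female cells, had 11 UMIs in organoid FBs and 9 in fresh FBs. No doublet caller was run, and a recount without the deepest 5% of cells stands with the other alternatives.

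Values below are UMIs summed over the FBs of a library, in CPM. Where 3 levels are given they stand in the order organoid, repetitive PBS, single-dose PBS. Ratios are log2 of organoid CPM plus 1 over repetitive PBS CPM plus 1, which understates the difference of genes near 0, and "higher" or "lower" means a difference of at least 2-fold on that scale. Intervals are exact 95% Poisson or binomial intervals and cover counting error alone. Where a count was 0, the limit given is instead 3 counts over the whole group, which bounds detection and not expression. For a sense of their width, Acta2 at 784 CPM in organoid FBs had an interval of 779 to 789.9, and at 19.3 CPM in fresh FBs one of 18.2 to 20.5.

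Organoid FBs and repetitive PBS FBs differed over much of the transcriptome. By the count of genes 2-fold apart, the 2 fresh libraries differed from each other about as much. Of 8592 genes with a mean of at least 10 CPM over the 2 groups, 936 (10.9%) stood higher in organoid FBs and 1707 (19.9%) stood lower, and the median ratio of all 8592 was −0.16. The counts for gene lists below are to be read against these 2 shares of all genes. At 4-fold or more, 368 stood higher and 653 lower, and at 16-fold or more 116 and 176. Of the 8285 genes that could be matched by symbol or synonym to the single-dose PBS library, 655 (7.91%) stood higher and 790 (9.54%) lower than in both fresh libraries. The fresh libraries themselves lay at least 2-fold apart for 2521 of the matched genes (30.4%), and 460 of the lower genes, against 19 of the higher ones, had the opposite sign when set against the single-dose PBS FBs. The tables of the fresh libraries also held different sets of gene rows, and the cause of that gap was not tested. With ratios centred on the median gene, the counts were 1200 higher and 1412 lower, a split of 45.9% to 54.1% against 35.4% to 64.6% without centring. Over the 8285 matched genes, 903 stood higher and 1629 lower against the repetitive PBS FBs, and 1794 higher and 1167 lower against the single-dose PBS FBs, so the balance of higher and lower genes turned with the fresh library. The filter on the mean lets a gene pass through 1 group alone: 519 of the 8592 genes were under 10 CPM in fresh FBs and 821 in organoid FBs, and of the 7252 at 10 CPM or more in both, 543 stood higher and 1115 lower. With the epithelial profile subtracted at 0.599% of organoid FB RNA, the ratio of the AEC2 marker sums given above (Sftpc, which the rule capped in organoid FBs, is the largest part of both sums), 928 stood higher and 1712 lower.

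**Figure D1:**
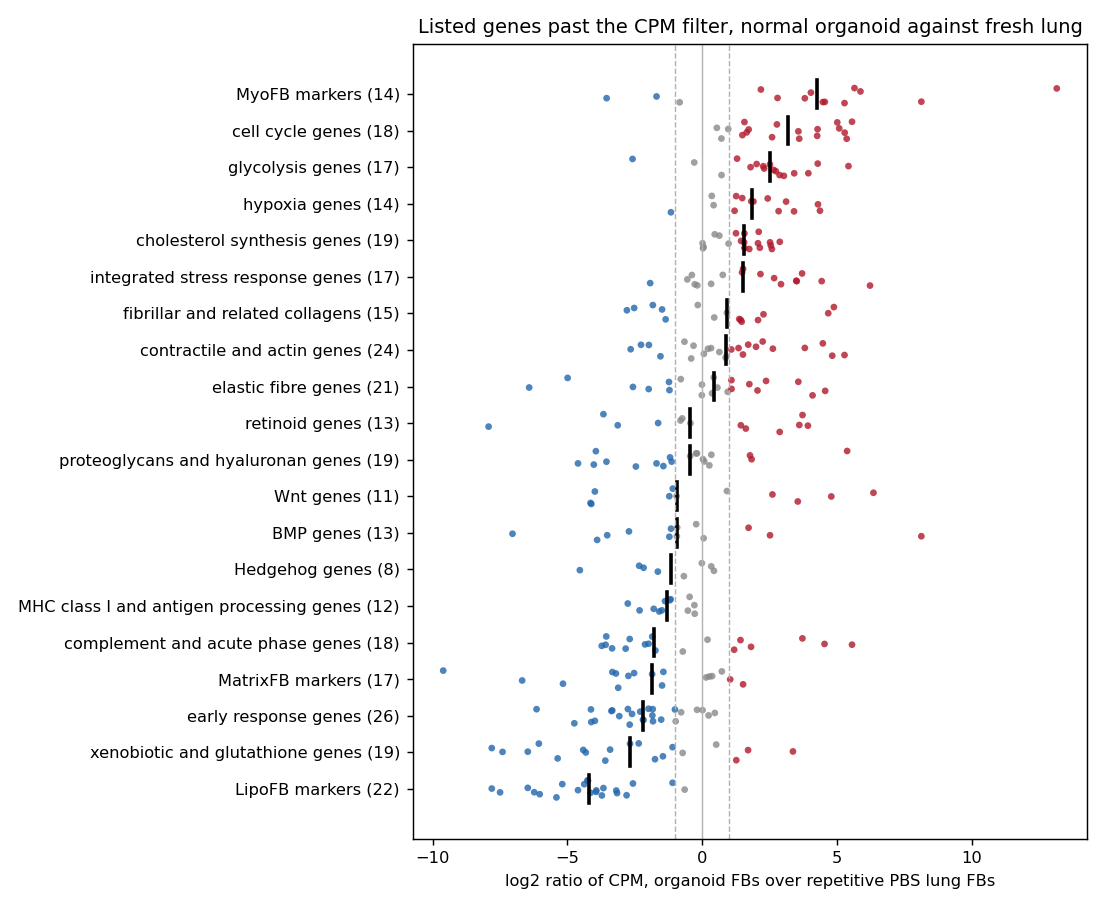
Log2 ratios (horizontal axis) of the genes of 20 lists in organoid FBs over repetitive PBS lung FBs, 1 point per gene past the CPM filter, with the number of genes in brackets. Black bars are medians, red points stand at least 2-fold higher, blue points at least 2-fold lower, and dashed lines mark 2-fold; the MyoFB list has its median at 4.25 and the LipoFB list at −4.19.

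LipoFB markers stood lowest of all lists in organoid FBs. All 22 listed markers passed the filter, 21 stood lower and none higher, with a median of −4.19, against −0.16 for all genes. Of the 16 at 10 CPM or more in both groups, 15 stood lower. Several of these markers were named by the study from these lungs, so their high level in fresh FBs is no independent evidence. Tcf21, the transcription factor that marks the lipofibroblast lineage, was at 20.6, 448 and 602 CPM (−4.38). Inmt, a methyltransferase of indole amines, was at 51.8, 4678 and 9141 CPM, and Ces1d, a carboxylesterase that cleaves lipid esters, was at 1.77, 618 and 592 CPM. Both fresh libraries thus held over 10 times the organoid level of each of these 3 genes. Npnt, a ligand of the integrin α8β1, was at 8.5, 1715 and 1117 CPM, and Itga8, which encodes the α8 chain, was at 26.1, 1147 and 346 CPM. Ligand and receptor chain stood low together. Slc7a10, an amino acid transporter, had 5.0 UMIs in all 1761 organoid FBs (0.0494 CPM) and 67.4 CPM in the fresh FBs, and Fgfr4, an FGF receptor, was at 0.138 and 84.5 CPM. Lrat, which esterifies retinol for storage, was at 16.2, 217 and 224 CPM. The exception was Plin2, which coats lipid droplets, at 164, 258 and 133 CPM, a ratio of −0.65 against the repetitive and 0.29 against the single-dose PBS FBs. Against the single-dose PBS FBs the median of the 22 markers was −4.01, and on the injured side −4.02.

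MatrixFB markers were divided. Of 17 markers past the filter, 11 stood lower and 2 higher, with a median of −1.86 and of −1.24 against the single-dose PBS FBs. Of these, 7 were under 10 CPM in organoid FBs and passed the filter through the fresh group, and of the 10 at 10 CPM or more in both groups 4 stood lower and 2 higher, with a median of 0.20. Clec3b, which encodes tetranectin, a plasminogen-binding protein, was at 0.237, 962 and 1004 CPM, the lowest ratio of any listed gene (−9.60). Dpt, the matrix protein dermatopontin, was at 4.53, 566 and 646 CPM, and Pi16, a marker of adventitial FBs, was at 1.76, 97.8 and 162 CPM. The stem and progenitor surface markers Cd34 (−3.20) and Ly6a (−2.53) stood lower too. Dcn, the collagen-binding proteoglycan decorin, was at 774, 2103 and 1559 CPM (−1.44). Serpinf1, a secreted inhibitor of vessel growth, stood higher at 361, 126 and 117 CPM (1.51), and Mfap5, a microfibril protein, lay within 2-fold at 723, 561 and 761 CPM. At 5000 UMIs per cell, 87.8% of the fresh FBs (86.8% to 88.7%) had more LipoFB than MatrixFB marker UMIs, against 14.7% of the organoid FBs (13.1% to 16.4%). Among Epcam-positive organoid barcodes the share was 82.9%, so this measure is not specific to FBs. Against the LipoFB side of the fresh FBs alone, those with more LipoFB UMIs, the MatrixFB median was 0.48, with Dcn at 0.13. Those fresh cells were picked for few MatrixFB UMIs, so that value is a description of the choice. Against the fresh FBs with more MatrixFB than LipoFB UMIs, Serpinf1 was at −1.39, Vcan, versican, at −0.21 and Itga5, an integrin chain, at −0.11, where all 3 stood higher against all fresh FBs; here too the same lists picked the cells.

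MyoFB markers stood highest of all lists. Of 14 past the filter, 11 stood higher and 2 lower, with a median of 4.25, of 4.48 against the single-dose PBS FBs and of 1.45 on the injured side. Of these, 6 were under 10 CPM in fresh FBs and passed the filter through the organoid group, and of the 6 at 10 CPM or more in both groups 5 stood higher (median 3.30). The list holds genes that the study picked in bleomycin lungs, where they were high by choice. Spp1, the secreted phosphoprotein osteopontin, was at 21838, 1.41 and 1.69 CPM, the highest ratio of all genes (13.14). Repetitive bleomycin FBs had 1375 CPM and the Epcam-positive organoid barcodes 3787 CPM. Organoid FBs of the normal side thus had more Spp1 than the fresh FBs of both bleomycin lungs, where the single dose gave 3993 CPM. Timp1, an inhibitor of matrix metalloproteinases, was at 4508, 89.2 and 114 CPM (5.64), and Cthrc1, a secreted collagen triple helix protein of fibrotic FBs, at 85.4, 0.482 and 0.339 CPM (5.87). Grem1, a BMP antagonist, was at 278 CPM and had no UMI in either fresh PBS library, so it stood at least 5186-fold higher than the 3 UMIs that a count of 0 allows in the repetitive PBS FBs. Tgfb1, the cytokine that drives MyoFB formation, was at 163, 22.8 and 41.3 CPM (2.79). Aspn (−1.70), Lrrc17 (−3.55) and Des (−0.84), all on the MyoFB list, had negative ratios, so the list did not move as a block.

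The contractile list was mixed. Of 24 contractile and actin genes past the filter, 11 stood higher and 4 lower, and the median was 0.88. Acta2, the α-smooth muscle actin that defines MyoFBs, was at 784, 19.3 and 27.3 CPM, or 5.27. Tagln, an actin-binding protein of smooth muscle, was at 1356, 96.2 and 124 CPM, and the tropomyosins Tpm1 (1.99) and Tpm2 (2.62) and the myosin light chain Myl9 (2.24) also stood higher. The smooth muscle genes Acta2, Tagln and Cnn1 (4.47) had the largest ratios of this list along with Tes (4.82), a focal adhesion protein. Mylk, the kinase that phosphorylates myosin light chains, stood lower at 123, 779.6 and 395 CPM (−2.65), as did the non-muscle myosin Myh10 (−2.27). Of the wider smooth muscle marker list, 5 of 8 reached 10 CPM in organoid FBs and 3 of 8 in fresh FBs, with sums of 2218 and 163 CPM, and 1 marker was at 0 in organoid FBs. Epcam-positive barcodes had 157 CPM of Acta2 and 288 CPM of Tagln.

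**Figure D2:**
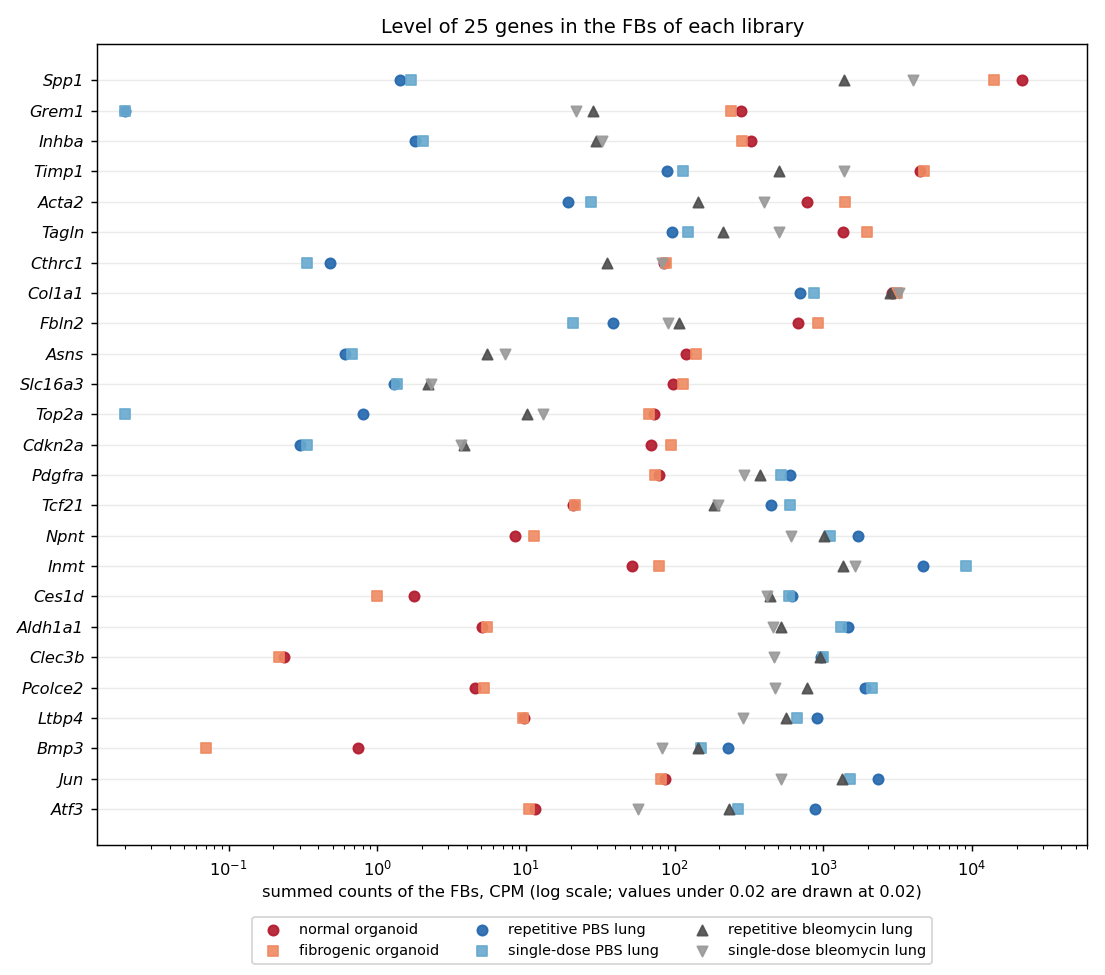
CPM (log scale) of 25 genes in the summed FBs of each of the 6 libraries, 1 point per library. Organoid FBs of both sides (red and orange) lie to the right of the 4 lung libraries for Spp1, Grem1 and Asns, and to the left of them for Tcf21, Npnt and Clec3b.

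Collagen genes did not move in 1 direction. Of 15 fibrillar and related collagens past the filter, 7 stood higher and 5 lower, with a median of 0.92, or 5 and 5 with a median of 0.44 when Col1a1 and Col1a2 were left out. Without Col1a1 and Col1a2, 11 were at 10 CPM or more in both groups. Of these 11, 3 stood higher and 5 lower (median −0.17). Col1a1 was at 2916, 695 and 864 CPM, Col1a2 at 3099, 1125 and 1193 CPM and Pdgfra at 78.8, 597 and 518 CPM. These 3 genes were used to choose the cells, Pdgfra in the lung alone, and their values are a description. Col3a1, the collagen III chain, was at 3196, 1234 and 1426 CPM (1.37) and Col5a2, a collagen V chain that regulates fibril width, at 1295, 268 and 112 CPM (2.27). Col8a1, a short-chain collagen of vessel walls and scars, was at 112, 2.84 and 1.19 CPM (4.88), and Col11a1, a fibril-nucleating chain of cartilage, was at 24.9 CPM with 1.0 UMI in the fresh FBs. All 3 chains of collagen VI, the beaded filament collagen of the pericellular matrix, stood lower: Col6a1 −1.83, Col6a2 −2.52 and Col6a3 −2.79. On the injured side the same 15 genes had a median of −0.76, with Col1a1 at 0.17 and Col3a1 at −0.76. Fresh repetitive bleomycin FBs had 2803 CPM of Col1a1 and 5057 CPM of Col3a1.

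Among basement membrane genes, 5 of 16 stood higher and 7 lower (median −0.44). Against the single-dose PBS FBs the median was 0.65, and 1 of the 16 stood lower than in both fresh libraries. The collagen IV chains Col4a1 (985, 249 and 142 CPM) and Col4a2 (505, 114 and 81.6 CPM) stood higher, as did Nid2, the linker protein nidogen-2 (4.72). The laminin chains Lama2 and Lamc1 stood lower against the repetitive PBS FBs, with Lama2 at 39.5, 581 and 64.9 CPM and Lamc1 at 76.2, 310.3 and 139.7 CPM. Both lay within 2-fold of the single-dose PBS FBs, where Lama2 had a ratio of −0.70, against −3.85 for the repetitive ones. Of 21 elastic fibre genes, 8 stood higher and 6 lower (median 0.43), or 6 and 5 of the 17 at 10 CPM or more in both groups (median 0.36). Ltbp4, which tethers latent TGF-β to elastic fibres and is needed for their assembly, was at 9.72, 915 and 672 CPM (−6.42), and Eln, elastin itself, at 282, 664 and 787 CPM. In contrast, Fbln2, a fibulin of developing and injured tissue, was at 674, 38.7 and 20.8 CPM (4.09), and the crosslinking enzymes Lox (1.08) and Loxl2 (2.37) stood higher.

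Genes that fold and process collagen stood higher in part, 8 of 22 with 1 lower (median 0.78). P4ha2, a prolyl hydroxylase subunit, was at 109, 12.6 and 8.13 CPM (3.01), Bmp1, which removes the procollagen C-propeptide, at 114, 19.1 and 19.1 CPM (2.51), and Serpinh1, the collagen chaperone HSP47, at 1028, 498 and 899 CPM (1.04). The 1 lower gene was Pcolce2, an enhancer of the BMP1 protease, at 4.54, 1926 and 2119 CPM (−8.44). Of 17 matricellular and glycoprotein genes, 8 stood higher and 3 lower (median 0.85), or 4 and 3 of the 12 at 10 CPM or more in both groups (median 0.56). Fn1, fibronectin, was at 2408, 785 and 487 CPM, Postn, periostin, at 52.4, 2.27 and 2.88 CPM, and Mgp, an inhibitor of calcification, at 57231, 18736 and 27454 CPM. Tnc, tenascin-C, was at 781, 172 and 12.9 CPM, so its ratio was 2.17 against 1 fresh library and 5.82 against the other. Of 19 proteoglycan and hyaluronan genes, 3 stood higher and 9 lower (median −0.45). Of the 14 at 10 CPM or more in both groups, 1 stood higher and 6 lower (median −0.34). The lower genes included Ogn, osteoglycin (122, 1987 and 1344 CPM), and Gpc3, a heparan sulfate proteoglycan (21.9, 558 and 326 CPM). The higher genes included Sdc1, syndecan-1 (5.37), and Vcan, versican (1.83). Sdc1 was at 128 CPM in organoid FBs and 317 CPM in the Epcam-positive barcodes. Of 19 matrix proteases and inhibitors, 7 stood higher and 5 lower (median 0.60), led by Mmp10, stromelysin-2, with 54.7 CPM and no UMI in either fresh library, at least 1021-fold above the floor of 3 UMIs. Of the 16 at 10 CPM or more in both groups, 4 stood higher and 5 lower (median 0.12). Timp2 (−1.35) and Timp3 (−2.06), inhibitors related to Timp1, stood lower.

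Among ligands and receptors, the TGF-β and activin list had 6 of 18 genes higher and 3 lower (median 0.20, and 0.91 against the single-dose PBS FBs). Of the 16 at 10 CPM or more in both groups, 4 stood higher and 3 lower (median −0.18). Inhba, which encodes the activin A subunit, was at 329, 1.8 and 2.03 CPM (6.88), and Fst, the activin-binding antagonist follistatin, was at 208, 7.93 and 9.48 CPM (4.55). Lrrc32, which holds latent TGF-β at the cell surface, was at 178, 20.9 and 22.5 CPM (3.03). The receptor Tgfbr3 (−1.99 and 0.01 against the repetitive and single-dose PBS FBs) and the inhibitor Smad7 (−1.48 and 0.74) stood lower against the first fresh library and not against the second. Of 13 BMP genes, 3 stood higher and 6 lower (median −0.94, and −0.38 against the single-dose PBS FBs). The ligands Bmp3 (0.74, 227 and 149.7 CPM), Bmp4 (11.2, 139 and 151 CPM) and Bmp5 (20.5, 319.8 and 137 CPM) all stood lower.

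Of 11 Wnt genes, 4 stood higher and 5 lower (median −0.95). Of these, 3 were under 10 CPM in fresh FBs and 3 in organoid FBs. Of the 5 at 10 CPM or more in both groups, 1 stood higher and 2 lower (median −0.95). Wnt2, the canonical ligand of distal lung mesenchyme, was at 6.38, 129 and 154 CPM, and the feedback targets Axin2 (1.52, 38.8 and 32.7 CPM) and Notum (0.237, 20.4 and 30.3 CPM) stood lower as well. The secreted Wnt inhibitors Sfrp1 (665, 56.2 and 46.4 CPM) and Frzb (86.3, 0.0714 and 0.339 CPM) stood higher, and so did Rspo3, a ligand that amplifies Wnt signals (89.5, 2.29 and 1.86 CPM). Of 14 FGF and HGF genes, 3 stood higher and 6 lower (median −0.79, and 0.16 against the single-dose PBS FBs). Fgfr3, an FGF receptor, was at 0.612, 116 and 115 CPM, Fgf7, a growth factor for epithelium, was at 114, 157 and 166 CPM, within 2-fold, and Fgf2 was at 218, 94.7 and 45.2 CPM. Fgf10, which acts on epithelial FGFR2, was at 34.3, 183 and 40.1 CPM, lower against the first fresh library (−2.38) but not the second (−0.22). Ereg, an EGF family ligand, was at 90.7, 0.822 and 0.169 CPM (5.65), and Hbegf, another, at 60.5, 1.54 and 1.02 CPM. Hbegf in the Epcam-positive barcodes was 167 CPM. Of 8 Hedgehog genes none stood higher and 4 lower (median −1.16), among them the targets Ptch1 (19.5, 91.5 and 76.9 CPM) and Hhip (0.326, 29.8 and 35.6 CPM). Igf1 was at 469, 123 and 110.2 CPM (1.92), and Igfbp3, which binds it, at 39.2, 507 and 619.8 CPM (−3.66).

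Retinoid genes went both ways. Of 13, 6 stood higher and 4 lower (median −0.44, and −0.97 against the single-dose PBS FBs). Of these, 3 were under 10 CPM in fresh FBs and 1 in organoid FBs. Of the 9 at 10 CPM or more in both groups, 3 stood higher and 3 lower (median −0.74). Aldh1a1, a retinaldehyde dehydrogenase, was at 5.04, 1463 and 1324 CPM (−7.92), whereas Aldh1a2, the enzyme that makes retinoic acid in the embryo, was at 61.7, 4.18 and 5.42 CPM (3.60). The retinoic acid receptor Rarb (36.2, 1.46 and 0.169 CPM) and the retinoic acid hydroxylase Cyp26b1 (26.3, 1.07 and 0.169 CPM), both known targets of retinoic acid, stood higher. Of 13 glucocorticoid genes, 9 stood lower and 2 higher (median −1.25, and −0.45 against the single-dose PBS FBs). Tsc22d3, the glucocorticoid-induced leucine zipper, was at 9.63, 106 and 218 CPM, and Hsd11b1, which makes active glucocorticoid, at 88.9, 1367 and 1514 CPM. The 2 higher genes were the metallothioneins Mt1 (5335, 1056 and 764 CPM) and Mt2 (1935, 202 and 384 CPM), which bind zinc and copper. The cyclic AMP list turned with the fresh library: 4 of 14 stood higher and 8 lower with a median of −1.09, against 1.75 when set against the single-dose PBS FBs. Pde4d, a cyclic AMP phosphodiesterase, was at 400.1, 290.1 and 7.62 CPM, and the cyclic GMP kinase Prkg1 at 158, 983 and 4.91 CPM, so the fresh libraries differed more from each other than the organoid FBs from the first. Of 8 cyclic GMP genes, 2 stood higher and 6 lower (median −2.22, and −0.89 against the single-dose PBS FBs).

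Sugar metabolism genes stood higher almost throughout. Of 17 glycolysis genes 14 stood higher and 1 lower, with a median of 2.51, of 2.10 against the single-dose PBS FBs and of 2.78 on the injured side. Of the 15 at 10 CPM or more in both groups, 12 stood higher. Gapdh was at 2088, 196 and 374 CPM (3.41), Pgk1, which makes ATP in the pathway, at 677, 43.4 and 61.3 CPM (3.93), and Eno1, enolase, at 564, 28 and 95.3 CPM (4.28). Slc16a3, the lactate exporter MCT4, was at 97, 1.29 and 1.35 CPM (5.42). The lower gene was Pfkfb3, a regulator of phosphofructokinase, at 12.1, 77.6 and 45.2 CPM. The Epcam-positive barcodes had 3042 CPM of Gapdh and 700.2 CPM of Pgk1, so these levels were not particular to the FBs of the culture. Of 14 genes known to respond to low oxygen, 11 stood higher and 1 lower (median 1.86). Of these, 4 were under 10 CPM in fresh FBs, and of the 10 at 10 CPM or more in both groups 7 stood higher (median 1.37). The higher genes included Egln3, a hydroxylase that senses oxygen (25.2, 0.339 and 0.169 CPM), Mif (1419, 164 and 251 CPM) and Vegfa, the vessel growth factor (195, 81.1 and 31.3 CPM). Adm (0.42) and Bhlhe40 (0.35), both of the same list, lay within 2-fold. Nuclear genes of the respiratory chain had a median of 0.00 against the single-dose PBS FBs, where all genes had one of 0.17, and 6 of 27 stood higher and none lower against the repetitive ones (median 0.75), while the 13 mitochondrially encoded genes had none in either direction.

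Of 19 cholesterol synthesis genes, 13 stood higher and none lower (median 1.56, and 1.67 against the single-dose PBS FBs). Of these, 6 were under 10 CPM in fresh FBs, and of the 13 at 10 CPM or more in both groups 7 stood higher (median 1.25). Fdps, which makes farnesyl diphosphate, was at 262, 34.9 and 40.6 CPM (2.87), and Sqle, the squalene epoxidase, at 49.5, 7.84 and 10.8 CPM (2.51). Of 16 lipid droplet and fatty acid genes, 7 stood higher and 3 lower (median 0.42, and 0.87 against the single-dose PBS FBs). Lpl, lipoprotein lipase, was at 1007, 95.4 and 88.7 CPM (3.39), and 139 CPM in the Epcam-positive barcodes. Fabp5 (85.3 CPM) and Scd1 (151 CPM) also stood higher than in fresh FBs, but the Epcam-positive barcodes held 3922 and 4989 CPM. With the epithelial profile subtracted, their ratios went from 3.56 to 3.11 and from 2.55 to 2.24.

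Of 17 genes of the integrated stress response and of serine synthesis, which cells switch on through ATF4 when amino acids are short, 10 stood higher and 1 lower (median 1.51). Of these, 10 were under 10 CPM in fresh FBs, and of the 6 at 10 CPM or more in both groups none stood higher and 1 lower (median −0.33). Asns, which makes asparagine, was at 119, 0.607 and 0.677 CPM (6.22). Phgdh, the first enzyme of serine synthesis, was at 103, 3.82 and 4.57 CPM (4.43), Psat1, the second, at 39.8, 2.64 and 3.73 CPM (3.48), and Trib3, a pseudokinase induced by ATF4, at 24.6, 0.965 and 1.19 CPM (3.70). Atf4 itself was at 156, 124 and 176 CPM, and Ddit3, the stress factor CHOP, at 81.2, 106 and 97.4 CPM, both within 2-fold. ER chaperone genes had 2 of 18 higher and none lower, beside 10.9% and 19.9% of all genes. Their median was 0.15, and 0.62 against the single-dose PBS FBs, with Hspa5, the chaperone BiP, at 684, 789 and 381 CPM.

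Promoter sequences show which members of that group hold the letters TGATGNAA, a known form of the element that ATF4 and C/EBP factors bind. RefSeq windows of GRCm38.p6, from 250 bases before to 50 bases after a transcript's start, were available for 20 of the 21 listed genes, and 7 of these (35%) held TGATGNAA on either strand, against 1219 of 27025 genes with a window (4.51%). They were Asns, Chac1, Fgf21, Pycr1, Slc7a11, Trib3 and Vldlr. The windows of 3 are printed 5′ to 3′ on the strand of the gene, with the match in capitals, since Asns and Trib3 stood high in culture and Vldlr, a lipoprotein receptor, was the lower gene of the list at 25.1, 98.7 and 60.1 CPM. A match is a description of letters and not evidence of binding. The lists searched here were chosen by known function, so a share above that of all genes is no independent evidence. The windows are chr6:7693160-7693459 on the minus strand for Asns, chr2:152344011-152344310 on the minus strand for Trib3 and chr19:27216770-27217069 on the plus strand for Vldlr.
Asns: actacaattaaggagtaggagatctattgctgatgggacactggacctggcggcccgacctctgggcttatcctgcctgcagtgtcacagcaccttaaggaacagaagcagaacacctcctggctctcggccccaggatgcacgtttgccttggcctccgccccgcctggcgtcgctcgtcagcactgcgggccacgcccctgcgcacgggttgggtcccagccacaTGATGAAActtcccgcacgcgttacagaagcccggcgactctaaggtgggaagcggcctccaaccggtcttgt
Trib3: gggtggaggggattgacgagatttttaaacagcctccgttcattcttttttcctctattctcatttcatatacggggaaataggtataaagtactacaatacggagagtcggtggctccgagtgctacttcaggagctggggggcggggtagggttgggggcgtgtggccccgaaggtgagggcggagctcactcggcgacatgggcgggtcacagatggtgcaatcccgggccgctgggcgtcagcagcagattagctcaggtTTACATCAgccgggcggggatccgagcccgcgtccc
Vldlr: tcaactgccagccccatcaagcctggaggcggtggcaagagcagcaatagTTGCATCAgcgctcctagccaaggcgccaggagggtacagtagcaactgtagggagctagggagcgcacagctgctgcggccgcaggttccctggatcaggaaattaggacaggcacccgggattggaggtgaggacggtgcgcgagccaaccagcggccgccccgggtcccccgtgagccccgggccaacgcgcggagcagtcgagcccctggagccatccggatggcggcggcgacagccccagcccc
The match lay 23 bases before the start of Asns, 14 bases after that of Trib3 and 200 bases before that of Vldlr, counted from the first base of the match in the window. The contractile list was searched for the CArG box, the element of serum response factor, on both strands. It was found in 5 of 23 genes with a window (21.7%; Actg1, Cnn2, Myl6, Myl9 and Vcl), in 2 of 22 early response genes (9.09%; Egr2 and Zfp36) and in 488 of all 27025 (1.81%). Of the 5, Myl9 stood higher in organoid FBs, at 99, 20.2 and 46.2 CPM, and the other 4 lay within 2-fold. Its window, chr2:156775214-156775513 on the plus strand, is shown for that reason.
Myl9: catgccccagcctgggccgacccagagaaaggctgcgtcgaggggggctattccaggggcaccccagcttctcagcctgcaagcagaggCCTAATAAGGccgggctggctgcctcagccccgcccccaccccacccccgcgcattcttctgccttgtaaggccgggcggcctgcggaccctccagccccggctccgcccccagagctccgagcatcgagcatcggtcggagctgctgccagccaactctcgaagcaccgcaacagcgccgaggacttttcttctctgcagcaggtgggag

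Early response genes stood lower in organoid FBs. Of 26 past the filter, 20 stood lower and none higher, with a median of −2.19, of −1.84 against the single-dose PBS FBs and of −1.43 on the injured side. These genes answer within minutes to growth factors and are also known to be induced while tissue is digested. Atf3, a stress transcription factor, was at 11.4, 878 and 267 CPM (−6.14), Jun at 86, 2330.3 and 1510.2 CPM (−4.74) and Fos at 255, 2642 and 2629.9 CPM (−3.37), the last 2 being subunits of AP-1. Dusp1, a phosphatase that ends MAP kinase signals, was at 62, 1099 and 1188 CPM. Fosl1 (13.3, 15.4 and 0.508 CPM), Ier3 (241, 239 and 99.4 CPM) and Myc (13.1, 9.22 and 3.89 CPM) lay within 2-fold of the repetitive PBS FBs. Epcam-positive barcodes of the same culture had 298 CPM of Jun and 348 CPM of Fos, also under the levels of the fresh FBs. Over single fresh FBs the list summed to 1552, 20091 and 43262 CPM at the 10th percentile, median and 90th percentile, and over organoid FBs to 1696, 3355 and 6071 CPM, so the organoid range lay within the lower part of the fresh one. Heat shock genes were mostly within 2-fold (2 of 15 higher, 5 lower; median −0.10, and 0.26 against the single-dose PBS FBs), with Hspa1a at 5.8, 221 and 221 CPM and Hspb1 at 124, 1319 and 1078 CPM.

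Genes that metabolise foreign compounds stood lower, 14 of 19 with 3 higher (median −2.68, and −2.34 against the single-dose PBS FBs). Of the 11 at 10 CPM or more in both groups, 7 stood lower and 2 higher (median −1.46). Gsta3, a glutathione transferase, was at 3.38, 741 and 697 CPM (−7.41), Fmo2, a flavin monooxygenase of lung, at 49, 3334 and 1298 CPM (−6.06), and Gstm1, another transferase, at 35.2, 769.8 and 1679 CPM (−4.41). Glutathione transferases are families of similar sequence, so their separate counts are uncertain. Cyp1b1, a cytochrome P450 of the aryl hydrocarbon response, was the highest of the list at 73.8, 6.27 and 6.94 CPM (3.36). Of 19 antioxidant and metallothionein genes, 6 stood higher and 3 lower. Sod3, the extracellular superoxide dismutase, was at 90.1, 813 and 2762 CPM, Gpx3, the secreted glutathione peroxidase, at 196, 1894 and 7929 CPM, and Hmox1, haem oxygenase 1, at 129.9, 10.8 and 12.9 CPM (3.47).

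Complement and acute phase genes had opposite members. Of 18, 6 stood higher and 10 lower (median −1.80). Of these, 4 were under 10 CPM in fresh FBs and 3 in organoid FBs. Of the 11 at 10 CPM or more in both groups, 2 stood higher and 7 lower (median −1.85). C3 (91.8, 1112 and 551 CPM) and C4b (26.8, 367 and 259 CPM), which are cleaved as complement is activated, stood lower, and Apoe, the lipid carrier apolipoprotein E, was at 427, 5046 and 5099 CPM (−3.56). Saa3, an acute phase protein, was at 488, 9.41 and 2.54 CPM (5.55), and Hp, haptoglobin, at 225, 63.4 and 79.8 CPM. Lcn2, which binds iron-carrying siderophores, was at 144, 5.27 and 4.91 CPM, with 3999 CPM in the Epcam-positive barcodes. Of 20 chemokine and cytokine genes, 8 stood higher and 3 lower (median 0.47, and 1.52 against the single-dose PBS FBs), or 4 and none of the 13 at 10 CPM or more in both groups (median 0.28). Cxcl12, a ligand of CXCR4, was at 599, 86.5 and 269.8 CPM, Ccl8, a monocyte chemokine, at 126, 5.18 and 4.91 CPM, and Il11, a cytokine of FB activation, at 57.4, 3.73 and 4.06 CPM (3.62). Cxcl1 (8.36, 217 and 65.9 CPM), which attracts neutrophils, and Cxcl10 (4.97, 129 and 11.9 CPM), which attracts T cells, stood lower. Of 12 genes of MHC class I and its peptide loading, 8 stood lower and none higher (median −1.29), including H2-D1 (95.1, 651 and 679 CPM) and B2m (423, 955 and 2776 CPM). Reads of H2 genes can be shared between near-identical copies. Interferon response genes had 3 of 20 higher and 5 lower, near the shares of all genes (10.9% and 19.9%). Of the 11 at 10 CPM or more in both groups, 1 stood higher and none lower.

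Cell cycle genes stood higher in organoid FBs, 15 of 18 with none lower and a median of 3.17. Of the 18, 12 were under 10 CPM in fresh FBs and passed the filter through the organoid group, and of the 6 at 10 CPM or more in both groups 3 stood higher (median 1.23). Mki67 was at 43.8, 0.393 and 0.169 CPM, Top2a, which untangles replicated DNA, at 72.9, 0.804 and 0 CPM, and Ccnd1, cyclin D1, at 91.5, 6.82 and 5.59 CPM. With every cell thinned to 5000 UMIs, 192 of 1761 organoid FBs (10.9%, 9.48% to 12.5%) had at least 3 UMIs over Mki67, Top2a, Cdk1, Ccnb1, Cenpf and Birc5, against 1 of 4645 fresh FBs and 0 of 669 single-dose PBS FBs, which allows a share of up to 0.448% of such cells in the latter. In Epcam-positive barcodes the share was 11.6%. Cdkn2a, which encodes the cell cycle inhibitors p16 and p19, was at 69.2, 0.304 and 0.339 CPM (5.75), and Cdkn2b, which encodes p15, at 34.5, 1.32 and 1.19 CPM (3.94). Cdkn1a, the p53 target p21, was at 226, 149.8 and 102 CPM, within 2-fold of the repetitive PBS FBs. Of 15 p53 and senescence genes, 8 stood higher and 2 lower (median 1.03, and −0.00086 for the injured side), or 5 and 2 of the 12 at 10 CPM or more in both groups (median 0.72).

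Transcription factors of mesenchymal identity split. Of 33 past the filter, 9 stood higher and 13 lower (median −0.37, and 0.25 against the single-dose PBS FBs). Of these, 4 were under 10 CPM in fresh FBs and 3 in organoid FBs. Of the 26 at 10 CPM or more in both groups, 5 stood higher and 10 lower (median −0.38). Besides Tcf21, the lung mesenchyme factors Meox2 (6.67, 109.5 and 111 CPM), Tbx4 (25.9, 148 and 56.6 CPM) and Tbx5 (15.3, 65.2 and 37.6 CPM) stood lower than in both fresh libraries. Foxf1, which patterns lung mesenchyme, was at 21.8, 28.9 and 31.8 CPM, and Hoxa5 at 126, 157 and 125 CPM, both within 2-fold. Twist1 (26.2, 2.23 and 2.37 CPM), Runx2 (58.5, 4.86 and 1.52 CPM), a bone factor, Prrx1 (278, 107 and 49.8 CPM) and Sox9 (23.5, 2.55 and 1.52 CPM), a cartilage factor, stood higher. Twist1, Runx2 and Sox9 were under 10 CPM in fresh FBs and passed the filter through the organoid group. For Sox9 the Epcam-positive barcodes had 31.8 CPM. Of 18 genes of cartilage, bone and tendon 5 passed the filter, of which Mgp, Sox9 and Runx2 stood higher and Fmod, fibromodulin, lower at 0.602, 23.7 and 44.4 CPM. Sox9 and Runx2 are on both lists. Of the 2 at 10 CPM or more in both groups, 1 stood higher. Zeb1 was −1.38 against the repetitive and 1.29 against the single-dose PBS FBs.

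Of the remaining lists, YAP targets and mechanosensors had 3 of 13 higher and 1 lower (median −0.34, and 0.88 against the single-dose PBS FBs), with Ankrd1, a muscle ankyrin protein, at 50.8, 1.11 and 0.847 CPM, Ccn2, the connective tissue growth factor, at 243, 391 and 131 CPM and the mechanosensitive channel Piezo2 at 114, 8.04 and 1.86 CPM. Of the 11 genes of this list at 10 CPM or more in both groups, 1 stood higher and 1 lower (median −0.66). Integrins had 3 of 11 higher and 2 lower (median 0.26, and 1.33 against the single-dose PBS FBs), with Itga5, the fibronectin receptor chain, at 72.1, 25 and 5.08 CPM. Of all genes, 10.9% stood higher and 19.9% lower. Plasminogen system genes had 1 of 5 higher and 1 lower, the higher one being Plaur, the urokinase receptor (30.6, 3.86 and 2.37 CPM). Of the 4 at 10 CPM or more in both groups, none stood higher and 1 lower. Imprinted growth genes had 1 of 6 higher and 3 lower (median −0.93, and −0.60 against the single-dose PBS FBs), with the cell cycle inhibitor Cdkn1c at 1.69, 86.2 and 88.2 CPM. Of 26 ribosomal protein genes, 5 stood higher against the repetitive PBS FBs (median 0.79), and the median was 0.23 against the single-dose PBS FBs.

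The spread of these levels over single cells is described within each library. MyoFB markers summed to 5990.1, 22217 and 62449.8 CPM at the 10th percentile, median and 90th percentile of organoid FBs, and to 0, 243 and 1080.4 in fresh FBs. The 10th percentile of organoid FBs thus lay above the 90th percentile of fresh FBs. Most of that sum was Spp1, with 21838 of the 30132 CPM of the list in the summed organoid FBs, and over these cells Spearman's rho was 0.90 between the list and Spp1 and −0.08 between the list and Acta2. LipoFB markers summed to 487, 1002 and 2209.6 and 8241, 22317 and 32021, again with the 10th to 90th percentile ranges apart. The contractile list summed to 4895, 8714 and 26103 in organoid FBs and 5911, 8909 and 12523 in fresh FBs, so medians were alike and the organoid range was wider at the top. Glycolysis genes summed to 2862, 6809.8 and 14168 and 681, 1236 and 1923, ranges that did not overlap, but the single-dose PBS FBs, at 1076, 1916 and 2959, overlapped the organoid range at its lower end.

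**Figure D3:**
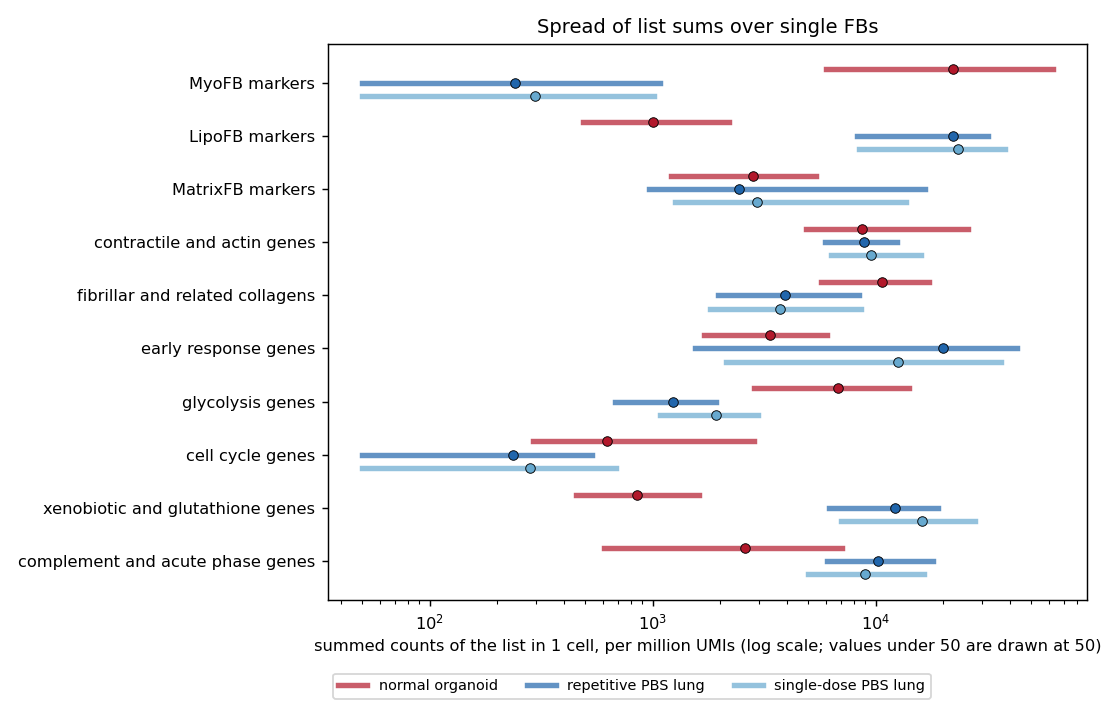
Summed counts of 10 gene lists per cell, in CPM (log scale), for organoid FBs, repetitive PBS FBs and single-dose PBS FBs. Lines run from the 10th to the 90th percentile over cells and dots are medians; for the MyoFB and LipoFB lists the organoid line lies apart from both fresh lines, and for the contractile list the lines overlap.

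Organoid FBs also differed among themselves. At 10000 UMIs per cell, Spp1 ran from 9 UMIs at the 10th percentile through a median of 137 to 563 at the 90th, and Mgp from 133 through 562 to 1104. Tagln had a median of 1 UMI and a 90th percentile of 39, Acta2 0 and 22, Saa3 0 and 14, and Cxcl14, a chemokine of FB subsets, 0 and 48. High Tagln, Acta2, Saa3 and Cxcl14 levels were thus held by a minority of the cells. Over the 1761 cells, which share a culture and a library, Spearman's rho was −0.31 between Spp1 and Acta2, −0.35 between Spp1 and the contractile list, and 0.43 between the contractile and hypoxia lists, as a description. The MatrixFB list and the collagens had a rho of 0.37.

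Shares of cells with a UMI were compared at 5000 UMIs per cell, which left out none of the organoid FBs, 451 fresh FBs and 172 single-dose PBS FBs. Spp1 was found in 96.4% of organoid FBs, 0.0861% of fresh FBs and 58.5% of Epcam-positive barcodes, whose median depth was 44331 UMIs before thinning. Without thinning these shares were 99.9%, 0.196% and 98.6%. Grem1 was found in 39.4%, 0% and 5.77% (73.9%, 0% and 16% without thinning), where 0 of 4645 fresh FBs allows a share of up to 0.0646% of cells with a UMI at this depth, not of cells that express it. Acta2 was found in 39.9% of organoid FBs and 4.28% of fresh FBs (68.6% and 7.48% without thinning), so most organoid FBs had none at this depth. Tcf21 was found in 9.48% against 72.6%, with 0.861% in Epcam-positive barcodes (46%, 85.5% and 7.24% without thinning). Npnt was found in 3.07% of organoid FBs against 8.61% of Epcam-positive barcodes, and Clec3b in 0.227% against 1.52% (15.3%, 40.1%, 1.19% and 12.5% without thinning), shares that lie below the epithelial ones, so no expression in organoid FBs is read from them. In fresh FBs they were 89.9% and 86.8% (90.9% and 94.7% without thinning).

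**Figure D4:**
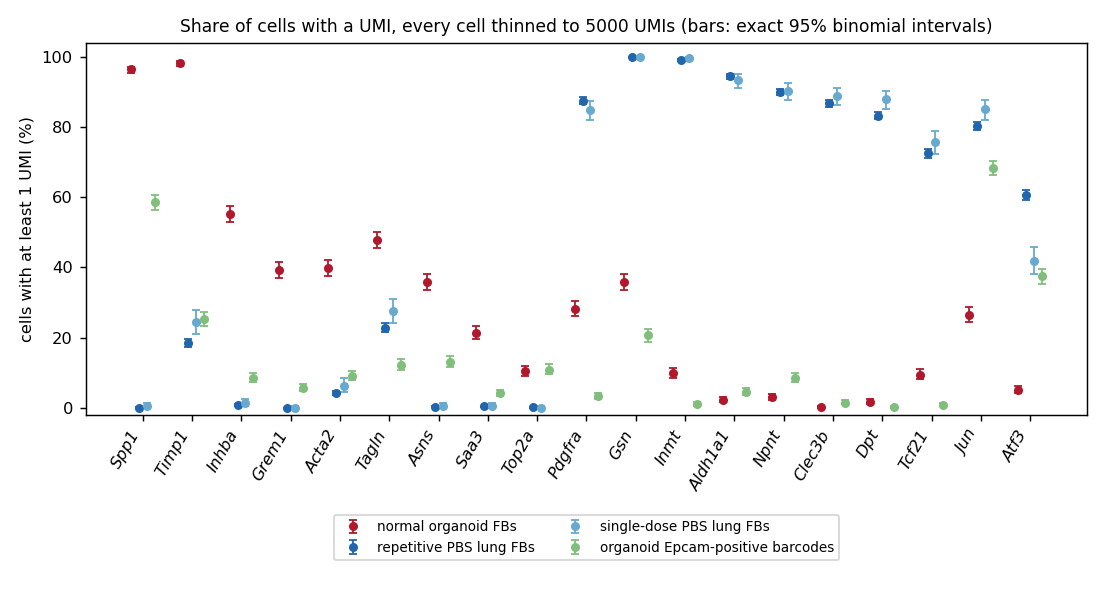
Percent of cells with at least 1 UMI of 19 genes, all cells thinned to 5000 UMIs, in organoid FBs, repetitive and single-dose PBS FBs and Epcam-positive organoid barcodes, with exact 95% binomial intervals. Organoid FBs lie above all 3 other groups for Spp1, Timp1, Inhba and Grem1, and below both fresh groups from Pdgfra to Atf3.

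Outside the lists, the 15 genes with the highest ratios that also stood 2-fold above the single-dose PBS FBs and above the Epcam-positive barcodes included, besides Spp1, Grem1, Inhba, Frzb, Asns, Cthrc1 and Mmp10 given above, Cck, the peptide hormone cholecystokinin, at 129, 0.589 and 0 CPM, Hmga2, a chromatin protein of embryonic tissue, at 84.2, 0.0714 and 0 CPM, and Thy1, a surface glycoprotein of FBs, at 147, 1.41 and 4.91 CPM. Chl1, a cell adhesion protein of neurons, was at 86.8, 0.393 and 0 CPM, Tnfsf8, a TNF family ligand, at 121, 0.536 and 0 CPM, Wfdc17, a small secreted protein, at 115, 0.125 and 5.59 CPM, and Nwd2 at 114, 0.179 and 0 CPM. Chodl, which encodes chondrolectin, was at 56.2 CPM with no UMI in either fresh library, at least 1048-fold above the floor of 3 UMIs. In all, 319 genes met these conditions. For lower genes the matching condition, a level in fresh FBs 2-fold above that in the other barcodes of the same lung, was met by 12 genes. Those other barcodes of the sorted lung cells also held FB genes, with Clec3b at 525 CPM. Genes with ratios further below 0 did not meet the condition. Among them, named after their values were seen, were C7, a complement component (1.4, 1363 and 26.1 CPM), Adra1a, an adrenergic receptor (0.079, 306 and 58.3 CPM), and Scn3a, a sodium channel (0.306, 349 and 119.6 CPM). The 12 were Cxcl1, Cxcl10, Tcf21, Gadd45b, Maff and Scara5 on the lists, and Plac9b (0.178, 25 and 143 CPM), Opcml (1.07, 39.5 and 9.82 CPM), Itih5 (1.26, 32.6 and 10.2 CPM), Slc10a6 (8.32, 80.5 and 57.2 CPM), Steap4 (11.6, 45.7 and 26.8 CPM) and Larp6 (7.09, 15.7 and 23.4 CPM). Plac9b has a near-identical copy, so its count is uncertain. Opcml and Itih5, an adhesion protein and a hyaluronan-binding protein, stood lower by more than 4-fold against both fresh libraries. Gsn, gelsolin, which severs actin filaments, is on the FB marker list and was at 113, 13024 and 14853 CPM.

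The injured side gave a comparison that shared no library with the normal one. Over the same 8592 genes, 670 stood higher in fibrogenic organoid FBs than in fresh repetitive bleomycin FBs and 1854 stood lower. Of the 936 genes higher on the normal side, 555 (59.3%) were also higher on the injured side, which is 82.8% of the 670, and 23 were lower there. Of the 1707 lower genes, 1395 (81.7%) were also lower on the injured side, which is 75.2% of the 1854, and none was higher. Both sides used the same medium, digestion and reporter line. Of the 14 MyoFB genes past the filter, 11 had a ratio nearer 0 on the injured side, and Cnn1, Des and Aspn did not, beside 4370 nearer 0 of all 8592 genes. The fresh repetitive bleomycin FBs had 120.3 CPM of Fst and 44.8 CPM of Postn. Spp1 had 13.14 on the normal and 3.36 on the injured side, Fst 4.55 and 0.47, and Postn 4.03 and 0.82. Of the LipoFB markers, Npnt was at −7.50 and −6.36, and Ces1d at −7.80 and −7.78. Chl1 (−1.12), Hp (−2.91), Saa3 (−0.26), Lpl (−0.44), Igf1 (−0.49), Fn1 (−0.28), Piezo2 (−0.35) and Chodl (−0.27) stood higher in organoid FBs on the normal side and had negative ratios on the injured side. The difference between the sides was not tested.

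**Figure D5:**
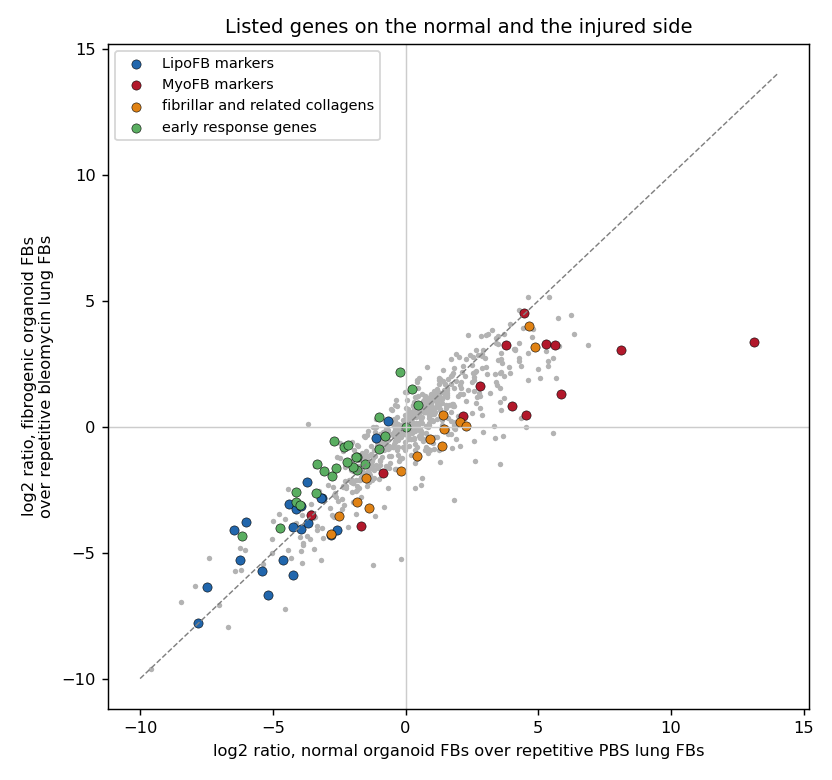
Log2 ratio of organoid over fresh FBs on the normal side (horizontal axis) against the injured side (vertical axis) for listed genes past the filter, 1 point per gene, with 4 lists in colour and grey points for the other lists. LipoFB markers lie on both sides of the dashed line of equal ratios (8 of 22 below it), and MyoFB markers (12 of 14) and collagens (15 of 15) lie mostly below it, where 5096 of all 8592 genes lie.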

How the data were processed

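Droplet single-cell RNA sequencing was analysed from the UMI counts per gene and barcode that the authors deposited, without normalization. The submitters' processing notes name Cell Ranger 3.0.1 and Seurat 3 with mm10, and the annotation of each table is not given in the sources used here. Gene symbols were used as the files give them, except in the single-dose tables. These were matched to the others by symbol or RefSeq synonym, with 327 symbols renamed in the single-dose PBS table.

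The members and gene lists were chosen with earlier results of these data known. FBs were chosen by the limits given above, without clustering or a doublet caller, and no barcode was assigned to a group from other values. UMIs were summed over the FBs of a library and expressed as CPM. Log2 ratios were taken after adding 1 CPM, for genes with a mean of at least 10 CPM in the 2 groups, with a difference of 2-fold counted as higher or lower. Depth ran from 5905167 to 128236662 summed UMIs per FB group. With 1 library per group no test was made. UMIs that share a barcode or a mouse are not independent, and the intervals cover counting error alone.

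For shares, each cell was thinned to 5000 UMIs and shallower cells were left out. Genes named were those of the membership rule, members of the 48 fixed lists and 14 marker lists, the 15 highest and up to 15 lowest ratios of 2-fold or more against both fresh libraries that also exceeded the other barcodes of the same library 2-fold, and Xist. Alternatives were the single-dose PBS FBs, a minimum of 10000 UMIs, cell means, centring, totals without ribosomal and mitochondrial genes, a pseudocount of 10 CPM, a filter at 1 CPM or none, stricter epithelial limits, subtraction of the epithelial profile, and recounts without cycling, deepest or mitochondria-rich cells. The LipoFB and MatrixFB sides of the fresh FBs and the injured side were others. A limit of 2000 UMIs for organoid FBs was added after seeing the data. Analyses used Python 3.11.15, numpy 2.4.6, scipy 1.17.1, pandas 2.3.3 and matplotlib 3.10.9, and were tested on simulated data. Promoter windows were RefSeq sequences of GRCm38.p6.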

Additional observations from a re-analysis of the deposited data

Results flagged for a closer look

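Chl1 and Hp moved in opposite directions on the 2 sides of the study. Chl1 had a log2 ratio of 5.98 for normal organoid FBs over repetitive PBS FBs and of −1.12 for fibrogenic organoid FBs over repetitive bleomycin FBs, with 86.8, 0.393, 33 and 72.7 CPM in these groups. Hp had 1.81 and −2.91, with 225, 63.4, 82.2 and 627 CPM. Each side is 1 library against 1, and the difference was not tested.

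The single-dose tables hold rows for the reporter transcripts that the comparisons above do not use. In the single-dose PBS FBs eGFP was at 750 CPM (728 to 773) from 4431 UMIs, and tdTomato had 0 UMIs. The tables of the organoids and the repetitive lungs hold no such rows, so the reporter could not be followed into culture here.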

How the results depend on the processing

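With 1 library per group, none of the values carries an error between mice, and 17 alternatives were set beside the counts of genes, the list medians and the ratios of named genes. Shares of cells, percentiles over cells and correlations were not recomputed. Of the 18 list medians of at least 1 in size, 302 of 306 values under the alternatives kept their sign. The exceptions were the MatrixFB median against the LipoFB side of the fresh FBs (0.48), cells picked for few UMIs of these genes, the cyclic AMP median against the single-dose PBS FBs (1.75) and against the MatrixFB side (0.20), and the p53 median on the injured side (−0.081). The cause of the last 3 was not tested. Lists with medians nearer 0 were left out of this count, and some of them turned in sign. The collagen median of 0.92 became −0.96 on the injured side. The basement membrane median of −0.44 became 0.65 over the same genes against the single-dose PBS FBs.

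Counts of genes moved by over 1.5 times in 4 cases: 1646 higher against the single-dose PBS FBs, 1799 higher with the filter at 1 CPM, and 1922 higher and 2656 lower with no filter, where more genes entered. With the filter applied anew, the LipoFB median was −4.01 against the single-dose PBS FBs, −4.07 at 10000 UMIs or more, −4.03 when centred, −3.40 with 10 CPM added, −4.04 without cycling cells, −4.35 against the LipoFB side, −2.24 against the MatrixFB side and −4.06 on the injured side. The contractile median was 0.67 against the single-dose PBS FBs, 1.05 when centred, 1.04 without ribosomal and mitochondrial genes, 1.08 at either lower filter, 0.48 against the MatrixFB side and 0.73 on the injured side. The collagen median was 1.16, 0.26 and −0.96 against the single-dose PBS FBs, the MatrixFB side and on the injured side, and the early response median −1.95 against the single-dose PBS FBs and −1.43 on the injured side.

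Genes within 2-fold in the main comparison could change sign without being counted here. Plin2, for example, had a negative ratio against the repetitive and a positive one against the single-dose PBS FBs. Of 3332 values for 196 named genes, 20 were counted as turned in sign, all in genes that stood higher or lower in the main comparison. On the injured side these were Chl1 (−1.12), Chodl (−0.27), Col1a2 (−0.092), Col3a1 (−0.76), Fn1 (−0.28), Hp (−2.91), Igf1 (−0.49), Igfbp3 (0.12), Lpl (−0.44), Piezo2 (−0.35) and Saa3 (−0.26). Against the single-dose PBS FBs they were Prkg1 (4.75), Smad7 (0.74), Tgfbr3 (0.012) and Zeb1 (1.29), against the LipoFB side Dcn (0.13) and Ly6a (0.48), and against the MatrixFB side Itga5 (−0.11), Serpinf1 (−1.39) and Vcan (−0.21). Fresh FBs were shallower than organoid FBs, so a gene without a UMI in them is bounded by the depth alone. No paired analysis was possible because each group held 1 library and the shared number 1 only names it.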
